A study of Mus musculus with 14 samples.

Results

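The genes described here are 40 genes of the sarcomere and of calcium handling in striated muscle, measured in RNA from the tail intervertebral discs of diabetic and control mice. They were taken by symbol from the table of gene counts, which holds 55487 genes. All 40 were found, and all 40 were among the 16915 genes with enough counts to be tested (over 1 CPM, the count scaled to the library's total, in at least 3 libraries). By the isoform usual in mature limb muscle, 11 were grouped as fast, 9 as slow and 20 as neither. The last group holds parts common to both fibre types, such as the actin *Acta1*, and genes with another bias.

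Discs came from male mice of 4 groups in 2 models of type 2 diabetes. The db/db mice (n = 3 libraries) were homozygous for a mutant leptin receptor, and their db/+ littermates (n = 3) carried it once. The age of both was 12 weeks. The STZ-HFD mice (n = 4) ate a high-fat diet for 4 to 6 weeks, received 1 injection of 100 mg/kg streptozotocin (STZ), a toxin of insulin-producing cells, and stayed on the diet for 12 further weeks. Con+Veh mice (n = 4, labelled wild type) ate chow and received only the citrate buffer. In each mouse 5 discs were pooled, so a library holds nucleus pulposus, annulus and whatever tissue stayed attached after dissection. In such bulk RNA, fewer muscle cells and less RNA per muscle cell cannot be told apart, and cohort, age and schedule differ between the models.

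Skeletal muscle shortens when myosin thick filaments pull on actin thin filaments inside the sarcomere, which the Z-disc, M-band and titin hold together. Troponin and tropomyosin open the thin filament when calcium leaves the sarcoplasmic reticulum through the ryanodine receptor, and a calcium pump then returns it to store. Fast and slow fibres use different paralogs of many of these proteins, and a disc has no striated muscle of its own, whereas tail muscles and their tendons lie beside it.

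The libraries held 16076908 to 58943169 counts. The library STZ-HFD replicate 1 had the fewest and stood apart, with 42626 genes detected against 25194 to 29924 in the other 13 libraries. No replicate pair agreed within counting noise (chi-square per degree of freedom from 47.2 to 499 over 18 pairs). The summed level of 8 cartilage and inner annulus markers ran from 16790 to 57555 CPM in the db cohort and from 958 to 16358 CPM in the STZ-HFD cohort.

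Muscle RNA was a sizeable share of every library. Outside ribosomal RNA genes, the 40 genes took 4.51%, 3.71% and 2.21% of the counts in db/db and 4.55%, 5.54% and 4.52% in db/+. They took 7.997%, 9.69%, 11.7% and 14.02% in STZ-HFD and 8.82%, 9.60%, 4.11% and 4.87% in Con+Veh. All db/db shares lay below all db/+ shares, but the gap between the nearest libraries was that from 4.51% to 4.52%. STZ-HFD and Con+Veh overlapped. *Ttn*, which encodes the giant spring protein titin (chromosome 2 from 76703980 to 76982547, GRCm38), alone took 36.96% to 57.0% of the members' counts.

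**Figure D1:**
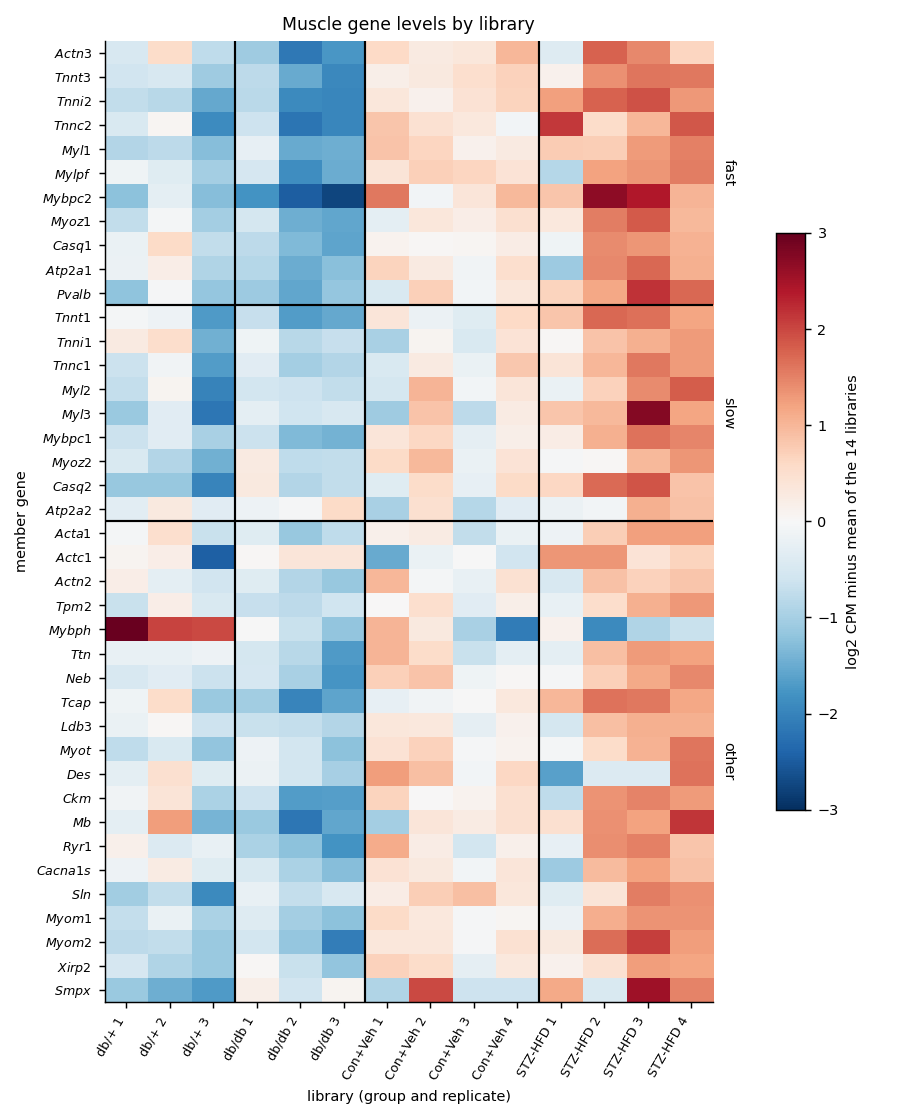
Level of each of the 40 muscle genes (rows) in each of the 14 libraries (columns), as log2 CPM minus the gene's mean over the 14 libraries, on a colour scale from -3 (blue) to 3 (red). Most genes are low in the db cohort, above all in db/db replicates 2 and 3, and high in STZ-HFD replicates 2 to 4, while *Mybph* is high in the db/+ libraries.

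In db/db, db/+ and STZ-HFD the genes moved together from library to library. Con+Veh was mixed: in its replicate 1, 15 genes had their lowest value of the group and 14 their highest. In its replicate 3, 7 of 40 lay above the Con+Veh mean. In db/db replicate 1, 38 of 40 genes lay above their db/db mean on the log2 scale, and 37 had their highest value of the group there. In db/+ replicate 3, 36 had their lowest value of the group. In STZ-HFD replicate 1, 35 had their lowest value of the group, and 2, *Tnnc2* and *Mybph*, had their highest. The median deviation of the members from their group mean was 0.49 in db/db replicate 1, -0.40 in db/+ replicate 3 and -0.87 in STZ-HFD replicate 1, on the log2 scale. Over all genes tested it was within 0.04 of 0 in the same libraries, but scaling of the libraries centres most genes, so this value was largely set beforehand. The plot of gene levels by library shows these columns as bands of 1 colour.

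Levels between genes were compared per kilobase of exon, as the mean over all 14 libraries. *Acta1*, skeletal muscle actin, was highest at 1849.6 CPM per kb. The fast troponins *Tnnt3* (1154 CPM per kb) and *Tnni2* (853 CPM per kb) followed, parts of the complex that blocks the thin filament at rest. *Actc1*, the actin of heart and of developing muscle, was lowest at 1.34 CPM per kb. Next to it lay *Tnnc2* at 1.56 and *Mybph* at 2.17 CPM per kb. Fast paralogs were the more abundant in most pairs: the fast over slow ratio per length, on the log2 scale, was positive in all 14 libraries for *Tnnt3* over *Tnnt1*, *Tnni2* over *Tnni1*, *Myl1* over *Myl3*, *Casq1* over *Casq2* and *Atp2a1* over *Atp2a2*. Only for *Mybpc2* over *Mybpc1*, fast and slow myosin binding protein C, was it negative in all 14, leaving aside *Tnnc2*.

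*Tnnc2*, the calcium sensor of fast troponin, could not be read from the gene counts. It had 610 counts over all 14 libraries, although its partners *Tnnt3* and *Tnni2* had 906319 and 604425. The authors' table of estimated transcript counts gave it 403054 counts, against a median of 28.6% of the gene counts over 7030 genes with at least 5000 counts. In GENCODE, 74.0% of its exonic bases (chromosome 2 from 164777161 to 164779967, minus strand) lie within exons of *Ube2c* on the other strand, and whether the counting used strand is not given in the sources used here. The transcript table is used for *Tnnc2* below. That table as used here lacks at least 1 coding transcript of 19 members. For 7 of these (*Casq1*, *Tnnt1*, *Myl3*, *Myoz2*, *Actn2*, *Mybph* and *Myot*) it holds less than 10% of the gene counts. Its values for these 7 are uncertain. From it, *Casq1*, *Myoz2* and *Myl3* are given below only in paralog ratios, and *Tnnt1* in a ratio and in the difference between the models. *Mybph* shares 49.9% of its exonic bases with *Adora1* on the other strand, and 6 members in all share at least 10% in this way. Their counts are uncertain to that extent.

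**Figure D2:**
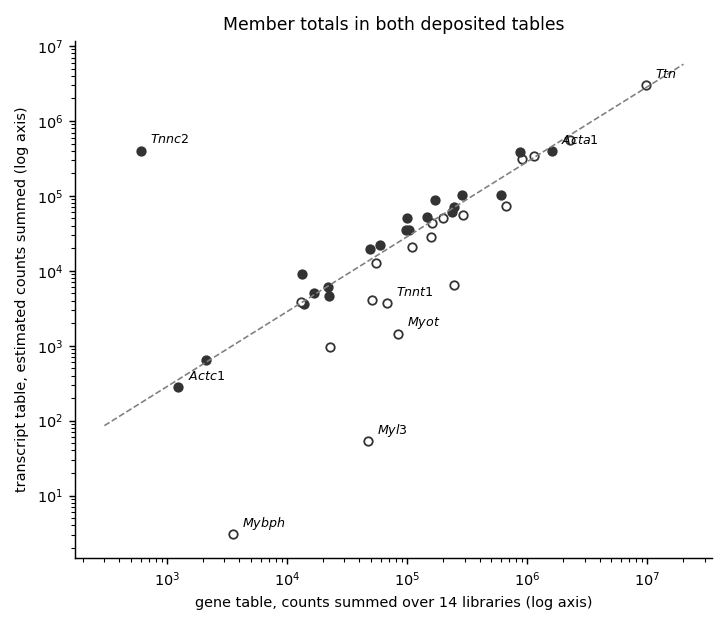
Total over 14 libraries of each of the 40 genes in the table of gene counts (x axis) and in the table of estimated transcript counts (y axis), both on log axes. Open points lack at least 1 coding transcript in the transcript table, the dashed line marks 28.6% of the gene counts, and *Tnnc2* lies far above it.

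The promoters below show the stretches in which muscle regulators are known to bind. They are the 250 bases before the start of 5 members on which the results turn, namely the most abundant per length (*Acta1*), the largest STZ-HFD response (*Myl3*), the largest db/db response (*Mybph*) and the calsequestrin pair. They come from RefSeq on GRCm38.p6, read 5′ to 3′ on the gene's strand. Capitals mark matches on either strand to the E-box CANNTG, bound by the MyoD family, the MCAT site CATTCC, bound by TEAD factors, the MEF2 site and the CArG box of serum response factor.
Acta1 (chr8:123894776-123895025, minus strand): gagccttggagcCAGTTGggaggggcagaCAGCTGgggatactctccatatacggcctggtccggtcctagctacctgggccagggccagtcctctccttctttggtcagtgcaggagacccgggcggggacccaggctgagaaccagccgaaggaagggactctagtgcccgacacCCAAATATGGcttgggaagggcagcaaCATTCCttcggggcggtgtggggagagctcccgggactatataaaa
Myl3 (chr9:110763428-110763677, plus strand): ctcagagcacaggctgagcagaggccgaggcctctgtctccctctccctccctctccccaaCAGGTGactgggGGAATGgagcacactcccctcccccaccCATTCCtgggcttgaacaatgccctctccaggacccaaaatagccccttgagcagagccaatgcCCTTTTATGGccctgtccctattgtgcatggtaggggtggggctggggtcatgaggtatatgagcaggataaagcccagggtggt
Mybph (chr1:134193198-134193447, plus strand): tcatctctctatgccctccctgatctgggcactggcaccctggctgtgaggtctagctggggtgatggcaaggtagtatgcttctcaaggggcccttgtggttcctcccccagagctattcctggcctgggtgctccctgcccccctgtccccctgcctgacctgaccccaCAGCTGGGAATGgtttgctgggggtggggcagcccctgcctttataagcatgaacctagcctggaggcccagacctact
Casq1 (chr1:172219896-172220145, minus strand): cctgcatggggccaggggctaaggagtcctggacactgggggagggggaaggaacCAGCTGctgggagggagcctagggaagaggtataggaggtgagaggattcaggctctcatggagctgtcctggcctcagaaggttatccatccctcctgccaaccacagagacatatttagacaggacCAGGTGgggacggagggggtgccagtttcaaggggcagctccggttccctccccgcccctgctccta
Casq2 (chr3:102086165-102086414, plus strand): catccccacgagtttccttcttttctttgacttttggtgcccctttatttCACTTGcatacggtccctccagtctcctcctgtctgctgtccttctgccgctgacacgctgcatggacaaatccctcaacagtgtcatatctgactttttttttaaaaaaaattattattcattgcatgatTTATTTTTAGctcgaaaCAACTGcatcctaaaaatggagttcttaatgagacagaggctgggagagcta
*Acta1* holds a CArG box whose first base lies 73 bases before the start and a MCAT site at 46. *Myl3* holds a CArG box at 85 and MCAT sites at 177 and 149. *Mybph* holds the E-box CAGCTG at 79 directly beside a MCAT site at 73. In the fast calsequestrin *Casq1* the E-box CAGCTG lies at 195 and another E-box at 67, while the slow *Casq2* holds a MEF2 site at 69 between E-boxes at 200 and 52.

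RefSeq promoters, from 250 bases before to 50 after the start, were found for 30 of 40 members and for 27025 gene symbols in all. The E-box CAGCTG, which is contained in the motif CANNTG, stood in 50% of the members' promoters and in 18.3% of all. CANNTG stood in 90% and 75%, the MCAT site in 26.7% and 16.6%, the MEF2 site in 16.7% and 3.7%, and the CArG box in 16.7% and 1.81%. CAGCTG was found in 4 of 7 fast and 4 of 8 slow members. These matches describe letters in a fixed window, with no test. No promoter is shown for *Tnnt3*, *Tnni2*, *Tcap*, *Myoz1*, *Sln*, *Myom2*, *Neb*, *Myot*, *Actn3* and *Atp2a2*.

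Against db/+ discs, db/db discs had negative fold changes in all 11 fast genes by gene counts (*Tnnc2* turned to 0.12 in the transcript table) and positive ones in 5 of 9 slow genes, and none of these passed the test. A gene was called at a limma adjusted p under 0.05 (Benjamini-Hochberg over all genes tested) and a change of at least 1 in either direction on the log2 scale. By this rule 2 of 40 members were lower and 0 were higher. Among all genes tested, 0.432% were called lower and 1.23% higher. Of the members, 30 had a negative log2 fold change, the median was -0.56, and 14 had an unadjusted p under 0.05. Of all 16915 genes tested, 3572 had an unadjusted p under 0.05, which is the background for the smaller lists in db/db as well. The median over all genes was -0.04. In 11 of 40 members the libraries of db/db and db/+ did not overlap, 8 of them lower and 3 higher, against 25.8% of all genes, so this count lay close to the background. The number called was 0 with edgeR (9 at an unadjusted p under 0.05) and 3 with DESeq2.

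*Mybph*, which encodes myosin binding protein H of the thick filament, had 2.88, 1.84 and 1.27 CPM in db/db and 22.7, 11.9 and 11.4 CPM in db/+. The groups did not overlap. Con+Veh libraries held 5.90, 3.55, 1.46 and 0.652 CPM and STZ-HFD libraries 0.757 to 3.17 CPM, so the db/+ libraries were above all 11 others. The log2 fold change in db/db was -2.94 (SE 0.40, limma adjusted p = 0.00753). Its antisense neighbour *Adora1*, with which it shares exonic bases, had a log2 fold change of 0.99 (SE 0.29, limma adjusted p = 0.0773).

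*Tcap*, whose protein telethonin caps titin at the Z-disc (chromosome 11 from 98383811 to 98384953), had 72.8, 37.5 and 49.4 CPM in db/db and 136, 217 and 69.1 CPM in db/+. The highest db/db and the lowest db/+ library overlapped. The log2 fold change was -1.39 (SE 0.33, limma adjusted p = 0.0395), and it was not called without any 1 of 5 libraries of the model, with -0.93 without db/+ replicate 2. *Tcap* was also the only member called in both models, lower in db/db and higher in STZ-HFD.

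The fast members had negative values in db/db by gene counts. Their log2 fold changes ran from -1.49 for *Actn3*, the fast Z-disc actinin, to -0.13 for the light chain *Myl1*, with a median of -0.81. None of the 11 was called (limma), and 6 had an unadjusted p under 0.05, where 3572 of all 16915 genes tested had. *Actn3* had 75.1, 35.2 and 47.0 CPM in db/db and 112, 229 and 92.1 CPM in db/+, without overlap (limma adjusted p = 0.0572). The 9 slow members had a median of 0.15, with 5 positive and 4 negative, none called and 1 with an unadjusted p under 0.05. Their range was -0.75 for troponin T *Tnnt1* to 0.95 for *Casq2*. These are counts over a chosen list and carry no test of their own.

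Calsequestrin, the calcium buffer of the sarcoplasmic reticulum, had the widest split between its fast and slow paralogs by gene counts. *Casq1* had 46.2, 31.8 and 26.7 CPM in db/db and 70.5, 119.5 and 47.8 CPM in db/+, a log2 fold change of -1.19 (SE 0.31, limma adjusted p = 0.0566). *Casq2* had 23.5, 10.5 and 11.5 CPM in db/db and 8.74, 8.68 and 4.83 CPM in db/+, a log2 fold change of 0.95 (SE 0.38, limma adjusted p = 0.171). Neither gene overlapped between the groups, and the signs were opposite. Neither passed the test.

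Of the 8 calcium genes 5 were negative and 3 positive in db/db, and limma called none, with 5 at an unadjusted p under 0.05. *Ryr1*, the release channel, had 196, 160.2 and 109 CPM in db/db and 415, 284 and 320.2 CPM in db/+ (log2 fold change -1.16, SE 0.36, limma adjusted p = 0.0911). *Cacna1s*, its voltage sensor, had 57.7, 40.7 and 32.3 against 70.4, 93.1 and 61.2 CPM (log2 fold change -0.83). *Atp2a1*, the fast calcium pump, had 559, 364 and 424 against 901, 1163 and 542 CPM (log2 fold change -0.96). The lowest control lay below the highest db/db library. *Atp2a2*, the slow pump that many other cells also make, had 194, 209.5 and 320.2 against 174, 266 and 171 CPM (0.22). *Pvalb*, the soluble calcium buffer of fast fibres, had -0.52, and *Sln*, which slows the pump, had 0.72. Myoglobin *Mb* and creatine kinase *Ckm*, which serve oxygen and ATP supply, had -1.59 and -1.16 and overlapped between groups.

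A ratio of paralogs within 1 library does not change with the amount of muscle RNA as long as both come in a fixed proportion. This need not hold for *Atp2a1* over *Atp2a2*, since many other cells also make *Atp2a2*. The part of those cells in that ratio was not tested. The fast over slow ratio was lower in db/db in all 8 pairs that the gene table can give, by a median of -0.97 on the log2 scale. In 4 of 8 pairs no library overlapped, where 25.8% of all single genes tested did not overlap either. A background over ratios of other genes was not computed. For *Casq1* over *Casq2* the log2 ratio per length was 1.47, 2.09 and 1.69 in db/db and 3.49, 4.26 and 3.78 in db/+, a difference of -2.10. For *Atp2a1* over *Atp2a2* the difference was -1.15, for *Myoz1* over *Myoz2*, calcineurin-binding proteins of the Z-disc, -1.09, and for *Mybpc2* over *Mybpc1* -0.93. The exact two-sided permutation p was 0.1 for each of these 4 pairs, the smallest that 3 against 3 libraries allow, and 0.18 after adjustment over 9 pairs. *Mylpf* over *Myl2* and *Myl1* over *Myl3* were lower by 1.02 and 0.84 with overlap. Troponin T and I pairs differed by -0.04 and -0.19. In the transcript table *Tnnc2* over *Tnnc1* differed by 0.05. There *Mybpc2* over *Mybpc1*, both with all their coding transcripts, differed by only -0.18 and overlapped (exact permutation p = 0.4), and *Myoz1* over *Myoz2* by -0.26 with overlap (exact permutation p = 0.8). *Casq1* over *Casq2* and *Atp2a1* over *Atp2a2* differed by -1.95 and -1.10 without overlap. *Mylpf* over *Myl2* had the largest difference there, -2.29 without overlap (exact permutation p = 0.1). The troponin T pair differed by -1.66, the troponin I pair by -0.23 and *Myl1* over *Myl3* by -0.47, all with overlap. *Myoz2*, *Casq1*, *Casq2*, *Atp2a1*, *Mylpf*, *Myl2*, *Myl1*, *Myl3*, *Tnnt3* and *Tnnt1* lack at least 1 coding transcript in that table. For *Casq1*, *Myoz2*, *Tnnt1* and *Myl3* it holds only 8.04%, 4.31%, 5.52% and 0.112% of the gene counts. The ratios with these genes are uncertain there.

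**Figure D3:**
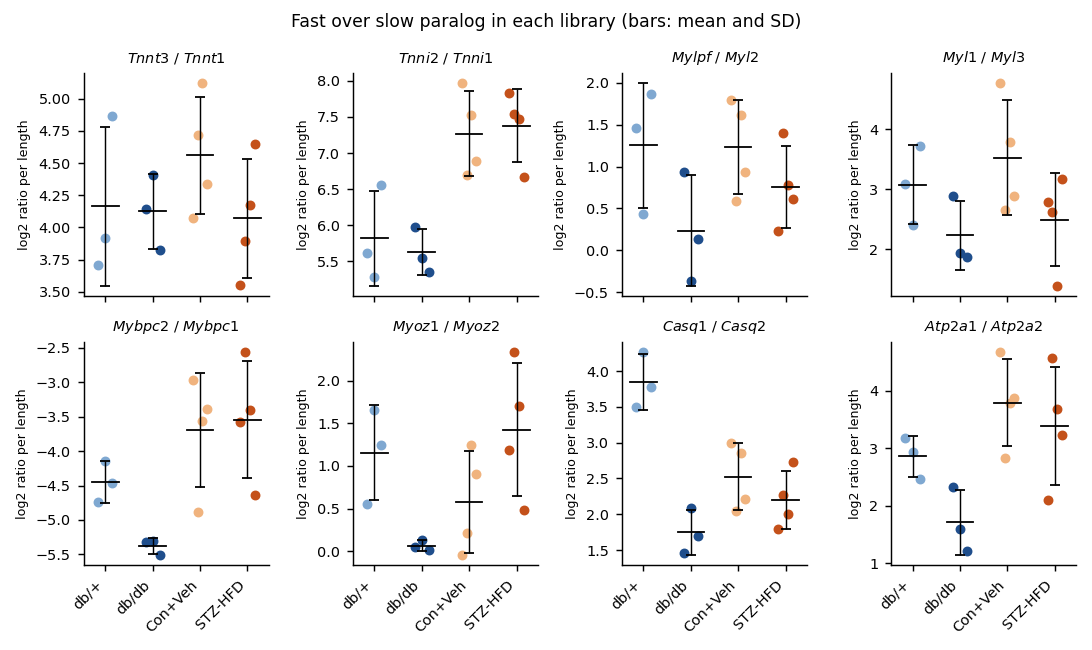
Log2 ratio of the fast over the slow paralog per exon length in each library (points) for 8 pairs, with the mean and SD of each group (bars). In db/db the ratios of *Casq1* over *Casq2*, *Atp2a1* over *Atp2a2*, *Myoz1* over *Myoz2* and *Mybpc2* over *Mybpc1* lie below every db/+ ratio, while STZ-HFD and Con+Veh overlap in all 8 pairs.

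Base composition moved with these ratios. Across 16899 genes with a GC content, the db/db log2 fold change fell with GC (Spearman rho -0.43, across genes, which are not independent), and in STZ-HFD rho was -0.08. The fast members had a median exon GC of 54.3% and the slow members of 48.7%. With the GC trend of each library removed, 7 of 8 pairs were still lower in db/db, the median difference was -0.72, and 2 of 8 pairs did not overlap. *Casq1* over *Casq2* then differed by -1.89 and *Myoz1* over *Myoz2* by -0.44. The part of GC in the remaining difference was not tested.

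Myosin heavy chains, the motor proteins, were outside the 40 genes and showed a like split. The sum of the fast chains *Myh1*, *Myh2* and *Myh4* was 8.599, 9.17 and 9.07 times the slow *Myh7* in db/db and 17.7, 17.7 and 18.5 times in db/+, without overlap. In STZ-HFD it was 5.76 to 15.7 times and in Con+Veh 11.95 to 22.98 times, with overlap. The GC trend was not removed from these myosin ratios. *Myh1* was called lower in db/db (log2 fold change -1.66, SE 0.31, limma adjusted p = 0.021) and *Myh7* was not (-0.51).

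Against Con+Veh discs, STZ-HFD discs had positive fold changes in fast and slow muscle genes alike. Of 40 members, 14 were called higher and 0 lower, where 1.3% of all genes tested were called higher and 1.31% lower. The median log2 fold change was 1.06 against -0.04 over all genes, 39 of 40 values were positive, and 34 had an unadjusted p under 0.05. Of all 16915 genes tested, 3025 had an unadjusted p under 0.05 in this comparison. Called were 2 of 11 fast, 5 of 9 slow and 7 of 20 other members. Their medians were 1.01, 1.28 and 1.03. Groups did not overlap in 5 of 40 members, *Tnni2*, *Tnnt1*, *Casq2*, *Actc1* and *Tcap*, against 4.74% of all genes.

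These calls depended on single libraries and on their weights. The fit estimated a weight of 3.05 for Con+Veh replicate 3 and 0.275 for Con+Veh replicate 1, and replicate 3 had the lowest Con+Veh value in 18 of 40 members. Without Con+Veh replicate 3, Con+Veh replicate 4 or STZ-HFD replicate 3, limma called 0 of 40 members, with 22, 32 and 26 at an unadjusted p under 0.05, and without STZ-HFD replicate 4 it called 1, *Mybpc2*. Over all genes tested, the calls in either direction went from 441 to 17, 18, 18 and 164 in these fits. Without STZ-HFD replicate 1, the library that stood apart, 27 members and 517 genes in all were called. At equal weights (voom) 0 were called, with 17 at an unadjusted p under 0.05, edgeR's quasi-likelihood test called 0, with 19 at an unadjusted p under 0.05, and DESeq2 called 7. Over all genes these gave 19, 29 and 272 calls. The median log2 fold change was 0.73 at equal weights and positive in every one of these fits.

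Of the 10 thin filament genes, 3 were called higher in STZ-HFD. *Acta1* had 2267, 4202, 5859.5 and 5865 CPM in STZ-HFD and 2772, 2977, 1508 and 2181 CPM in Con+Veh. Replicates 2 to 4 lay above all controls and replicate 1 among them. The log2 fold change was 1.46 (SE 0.31, limma adjusted p = 0.0189). *Tnni2* had 2113, 3069, 3359 and 2209 CPM in STZ-HFD and 1144, 990.1, 1222 and 1424 CPM in Con+Veh, without overlap (1.10, SE 0.29, limma adjusted p = 0.0416). *Tnnt1* had 183, 340.2, 328 and 235 CPM in STZ-HFD and 132, 91.0, 80.2 and 156 CPM in Con+Veh, again without overlap (1.42, SE 0.35, limma adjusted p = 0.0346). The remaining 7 thin filament genes ran from 0.88 to 1.18 and were not called. *Tnnt3*, the most abundant of them per kilobase of exon, had 1549, 3639, 4265 and 4236 CPM in STZ-HFD and 1599.6, 1718, 2003 and 2257 CPM in Con+Veh. Replicates 2 to 4 of STZ-HFD lay above all controls. At the other end, *Actc1* had 4.52, 4.54, 2.42 and 2.88 CPM in STZ-HFD and 0.625, 1.58, 1.79 and 1.19 CPM in Con+Veh, without overlap (1.03, SE 0.54, limma adjusted p = 0.332). From the transcript table, *Tnnc2* had 7986 to 17083 estimated counts, scaled like CPM, in STZ-HFD and 3109 to 8585 in Con+Veh. The log2 fold change was 1.43 (SE 0.32, limma adjusted p = 0.0651), and in db/db it was 0.12 (SE 0.35).

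*Myl3*, the slow essential light chain of myosin, had the largest STZ-HFD value among the members. It had 112, 122, 423 and 143 CPM in STZ-HFD and 30.0, 113, 36.1 and 73.7 CPM in Con+Veh (log2 fold change 2.04, SE 0.44, limma adjusted p = 0.0199). The highest control and the lowest STZ-HFD library were nearly equal, and without STZ-HFD replicate 3 the value was 1.40. *Mybpc1* (1.37) was called as well. Not called were *Mybpc2* (1.22), *Myl2* (1.16), *Myl1* (0.97), *Mylpf*, the fast regulatory light chain (0.61), and *Mybph* (0.02).

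Among Z-disc and M-band genes, 5 of 13 were called higher. *Smpx*, a small stretch-responsive protein, had 43.5, 14.4, 115 and 55.5 CPM in STZ-HFD and 10.6, 78.7, 12.8 and 12.9 CPM in Con+Veh (log2 fold change 1.88, SE 0.49, limma adjusted p = 0.0416). Its values overlapped, since Con+Veh replicate 2 was above 3 of the STZ-HFD libraries. *Tcap* had 295, 464, 445 and 334 CPM against 125, 138, 147 and 186 CPM, without overlap (1.31, SE 0.29, limma adjusted p = 0.0229). *Ttn* had 12329, 28103, 36554 and 34604 CPM against 30254, 21878, 9402 and 12268 CPM, with overlap (1.42, SE 0.34, limma adjusted p = 0.032). The M-band linkers *Myom1* (1.10) and *Myom2* (1.36) were the others called. Among those not called, the actinins *Actn2* and *Actn3* had 0.60 and 0.47, *Ldb3* 0.95, the Z-disc proteins *Myot*, *Myoz1* and *Myoz2* 0.98, 1.05 and 0.72, and the actin-binding *Xirp2* 0.95. *Des*, the intermediate filament desmin that smooth muscle makes too, was the only member with a negative value, -0.06, with 409, 958, 954 and 3954 CPM in STZ-HFD and 3016, 2374, 1204 and 1943 CPM in Con+Veh.

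Of the 8 calcium genes, 4 were called higher in STZ-HFD. *Pvalb* had 451, 638, 1275 and 937 CPM in STZ-HFD and 208, 466, 268 and 360.4 CPM in Con+Veh (log2 fold change 1.59, SE 0.31, limma adjusted p = 0.0121). Its lowest STZ-HFD library was just under the highest control. *Casq2* had 29.7, 62.1, 70.5 and 34.8 CPM against 15.0, 28.1, 16.2 and 28.5 CPM, without overlap (1.28, SE 0.32, limma adjusted p = 0.0372). *Atp2a2* (1.28) and *Ryr1* (1.27) were called too. *Casq1* (0.99) and *Atp2a1* (1.01) missed the threshold, with limma adjusted p of 0.0538 and 0.132. The paralog ratios did not separate the groups: 5 of 8 pairs were lower and 3 higher in STZ-HFD, with a median of -0.36, and no pair was free of overlap (smallest exact permutation p 0.143, for *Myoz1* over *Myoz2*).

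**Figure D4:**
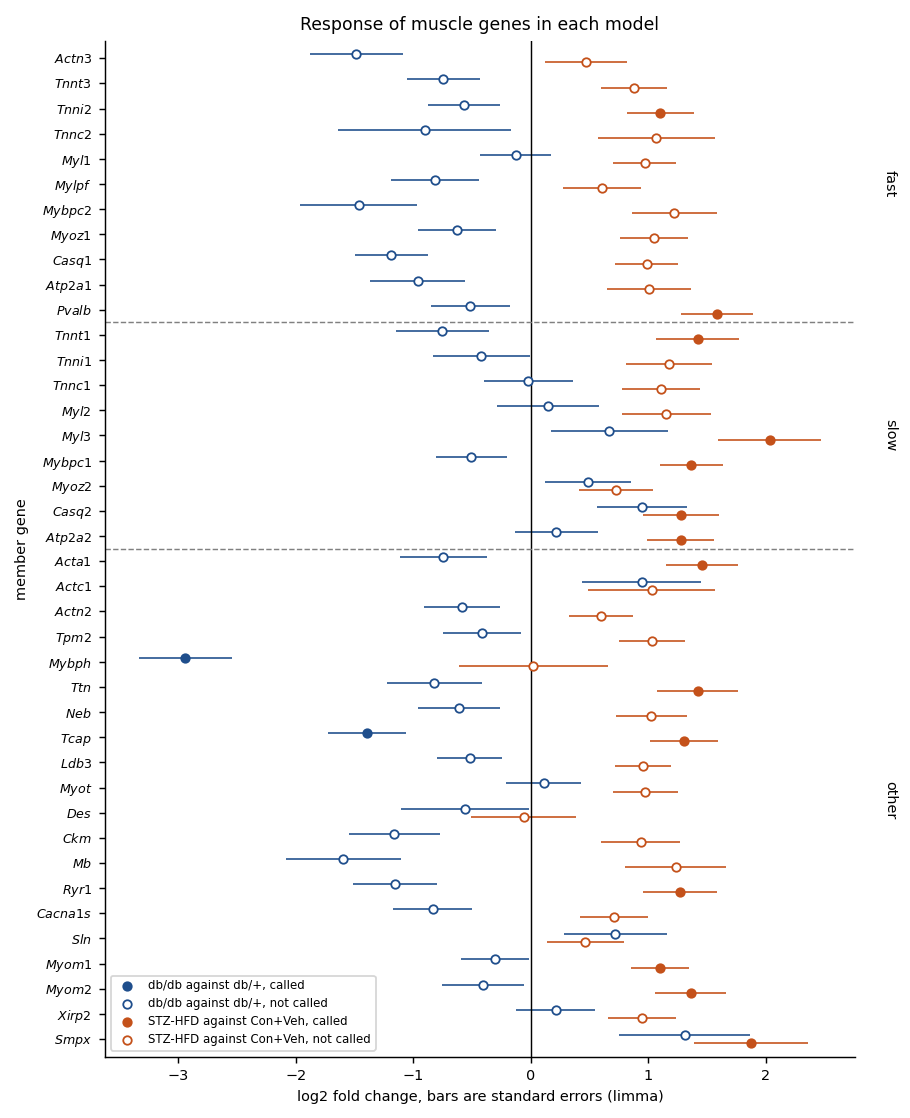
Log2 fold change (limma, x axis) of each of the 40 genes in db/db against db/+ (blue) and in STZ-HFD against Con+Veh (orange), with standard errors as bars and called genes filled. The orange points lie between -0.06 and 2.04, the blue points between -2.94 and 1.31, and the 11 fast genes are on opposite sides of 0 in the 2 models by gene counts, except that *Tnnc2* has 0.12 in db/db in the transcript table.

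The models differed in the size of the response for 12 of 40 members, all lower in the db model, where 0.952% of all genes tested passed in that direction. The test was the difference of the log2 fold changes (db/db minus db/+, less STZ-HFD minus Con+Veh) at a limma adjusted p under 0.05. At an unadjusted p under 0.05 were 30 members and 2926 of all 16915 genes tested. The 12 were *Mybpc2*, *Casq1*, *Pvalb*, *Tnnt1*, *Mybpc1*, *Acta1*, *Ttn*, *Tcap*, *Ldb3*, *Ckm*, *Mb* and *Ryr1*. Their differences ran from -1.47 for *Ldb3*, a Z-disc scaffold, to -2.83 for *Mb*, and the median over all members was -1.61 against 0.03 over all genes. *Tcap* differed by -2.70 (SE 0.44, limma adjusted p = 0.0175). *Casq1* differed by -2.17 (SE 0.41, limma adjusted p = 0.0206) and *Casq2* by -0.33 (SE 0.50, limma adjusted p = 0.794). At equal weights and with edgeR 0 members passed, with 18 and 21 at an unadjusted p under 0.05, and without Con+Veh replicate 3 or STZ-HFD replicate 3 none passed, with 25 and 28 at an unadjusted p under 0.05. Over all genes the number passing went from 300 to 3 at equal weights, 5 with edgeR, and 4 and 27 without those libraries. Without STZ-HFD replicate 1 it was 23 members and 425 genes in all.

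Other muscle genes went with the members. In STZ-HFD, 9 of 11 muscle energy enzymes, 4 of 6 sarcomeric myosin heavy chains, 3 of 24 other sarcomere genes and 3 of 14 other excitation-contraction genes were called higher and none lower, with medians of 1.18, 1.19, 0.83 and 0.96. Calls from this and the other lists rest on the same weighted fit as the members' calls. Over all genes tested, that fit gave 441 calls in STZ-HFD, and 17 without Con+Veh replicate 3. Calls per list were not counted without single libraries. The enzymes with the largest values were the cytochrome oxidase subunit *Cox8b* (1.82), the mitochondrial creatine kinase *Ckmt2* (1.70) and the phosphofructokinase *Pfkm* (1.55). In db/db the medians were -0.46, -0.92, -0.74 and -0.33, and *Myh1* and the junctional protein *Jph2* (-1.18) were the genes called. Among 12 myogenic factors and motor end plate genes, 9 were tested. *Chrne*, the adult subunit of the muscle acetylcholine receptor, was called higher in STZ-HFD (1.54, SE 0.30, limma adjusted p = 0.013). Genes of forming muscle differed in level. The embryonic myosin *Myh3* was at 12.4 to 74.9 CPM in every library and was not called, and the perinatal *Myh8* was at 9.60 to 68.0 CPM and was called higher in STZ-HFD (1.26, SE 0.32, limma adjusted p = 0.038). The myogenic factors *Myog* and *Myf5* and the fetal receptor subunit *Chrng* were at 0 to 3.74 CPM in every library and were not tested, with the highest values of *Myf5*, *Myog* and *Chrng* all in STZ-HFD replicate 1.

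The kind of muscle was read from markers of smooth and heart muscle. Of 10 heart muscle genes, *Nppa*, *Nppb*, *Tnni3*, *Mybpc3* and *Pln* were at 0 to 2.14 CPM and are named because they lay near 0. The others were *Myh6*, *Tnnt2*, *Ryr2*, *Myl7* and *Myl4*, whose levels are not given singly here. The summed level of all 10 was 17.1 to 61.8 CPM beside 12168 to 79094 CPM for the members. None of the 5 heart genes tested was called (limma) in either model, with 1 and 2 at an unadjusted p under 0.05 in db/db and STZ-HFD. The 9 smooth muscle genes were expressed, with a summed level of 1006 to 2073 CPM in db/db, 394 to 1794 in db/+, 583 to 2792 in STZ-HFD and 589 to 1902 in Con+Veh. None of the 9 was called (limma) in either model, with 2 at an unadjusted p under 0.05 in each, and their medians were 1.05 in db/db, opposite in sign to the members, and 0.80 in STZ-HFD. Their part in *Des* and *Tpm2*, which smooth muscle also makes, was not tested.

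Cartilage markers were lower in STZ-HFD. Of 8 cartilage and inner annulus genes, 6 were called lower and none higher, with a median log2 fold change of -1.56. These calls, too, come from the weighted fit and were not counted without single libraries. *Chad*, a cartilage matrix protein, had -4.26, the collagen *Col2a1* -1.84 and the link protein *Hapln1* -1.68. Their summed level was 958 to 2019 CPM in STZ-HFD and 3590 to 16358 CPM in Con+Veh, without overlap. In db/db the same list had a median of -0.60 with none called by limma and 1 at an unadjusted p under 0.05. Of 7 outer annulus and tendon genes, which would also mark the tissue at the disc edge, 2 were called lower in STZ-HFD (median -0.77). None of 6 nucleus pulposus genes tested was called by limma in either model, with 1 in db/db and 0 in STZ-HFD at an unadjusted p under 0.05, and in STZ-HFD 4 of 6 were positive with a median of 0.11. Adipocyte markers called higher numbered 3 of 7 in the db model and 1 of 7 in the STZ-HFD model. The share of adjacent muscle in the dissected tissue was not measured, and its part in the members' levels was not tested.

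**Figure D5:**
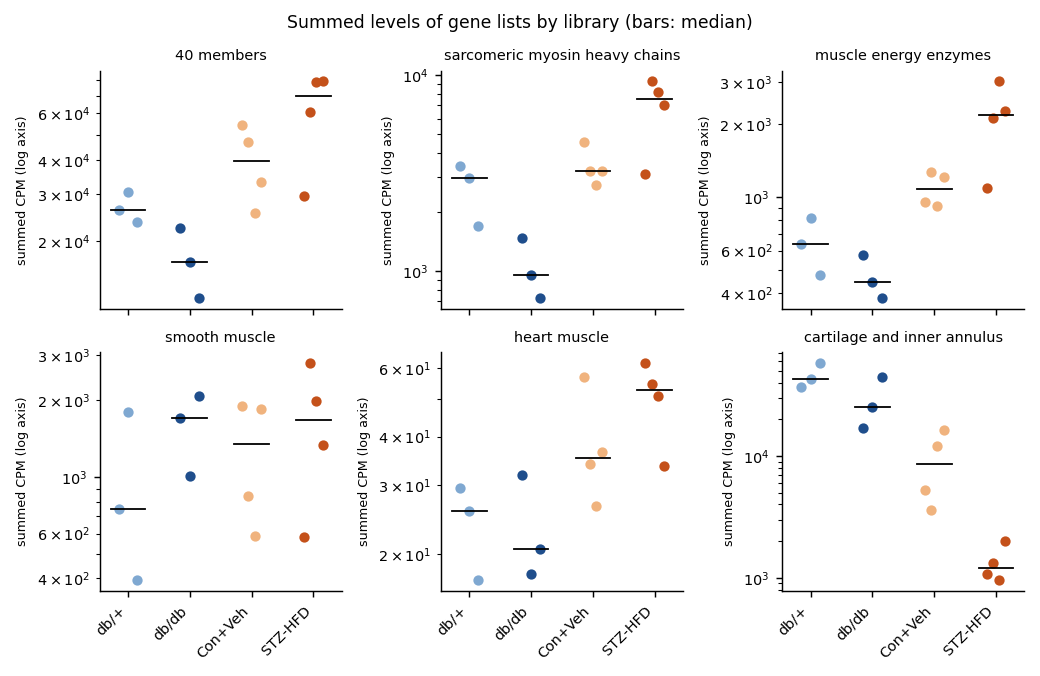
Summed CPM (log axis) of the 40 muscle genes and of 5 marker lists in each library (points), by group, with the group median as a bar. Sums of the members, myosins and energy enzymes are highest in STZ-HFD replicates 2 to 4, smooth muscle sums overlap between all groups, and cartilage sums are lowest in STZ-HFD.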

How the data were processed

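Tail discs were sequenced after SeqPlex amplification. Per the submitters' processing notes, the authors used STAR and featureCounts for the deposited whole-number counts per gene and Salmon for the deposited estimated counts per transcript, on Ensembl 101 (GRCm38). The gene table had 55774 lines, of which 287 repeated a gene, and 3 counts equal 0.0509 to 0.187 CPM by the library's total, before TMM scaling. The CPM values of 3 counts bear on counting error only, whereas the limma standard errors include the spread between libraries. Ribosomal RNA genes took 28.1% to 60.2% of the counts. Genes over 1 CPM in at least 3 libraries were fitted for all 4 groups together with TMM scaling and limma 3.58.1 (edgeR 4.0.16, R 4.3.3). Voom with library quality weights was taken from the study's methods; the filter, TMM and joint fit were chosen here, and p-values were adjusted by Benjamini-Hochberg over 16915 genes. Each library is 1 mouse. CPM values printed for genes and lists are TMM-scaled. Log2 ratios of paralogs used a prior count of 2, exon length from GENCODE M21 and exact two-sided permutation tests. Estimated counts were rounded to whole numbers before the fit. DESeq2 1.42.0, edgeR's quasi-likelihood test, other filters and scalings and leaving out each library were alternatives. Scripts were tested on simulated data. The members, the other lists and the tests were chosen with earlier results of these data known. Values per library are printed for the called members with the largest changes (6 per model and direction), members called in both models, the members highest and lowest per length and paralogs compared, with *Ryr1*, *Actn3*, *Cacna1s* and *Des* chosen after their values were seen. From the other lists the called genes with the largest changes (3 per list and model) and some genes at or near 0 are named. Removing the GC trend was added for the paralog ratios after seeing the data.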

Additional observations from a re-analysis of the deposited data

Results flagged for a closer look

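In 8 of 80 sets of libraries (40 genes in each group of 4 libraries), 1 library lay far from the other 3. Chance gives about 1 in 20 for a single set. The sets share libraries and are not independent, so 8 of 80 cannot be set against that rate. In STZ-HFD replicate 1 this held for 6 genes, on the log2 CPM scale: *Tnnt3* at 10.6 (nearest library 11.8), *Mylpf* at 7.05 (9.12), *Actn2* at 8.17 (9.35), *Ldb3* at 6.96 (8.39), *Ckm* at 6.51 (8.54) and *Cacna1s* at 5.21 (7.18). All 6 were low there, in the library with the fewest counts and the most genes detected. Without it 27 of 40 members were called in STZ-HFD. *Mb* was low in Con+Veh replicate 1 at 6.85 (nearest 8.12), and *Smpx* was high in Con+Veh replicate 2 at 6.30 (nearest 3.70).

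The response differed between the models for 12 members, as the difference of the log2 fold changes with limma and Benjamini-Hochberg adjustment. For the calcium genes it was -2.17 for *Casq1* (adjusted p = 0.0206), -2.10 for *Pvalb* (adjusted p = 0.0308) and -2.43 for *Ryr1* (adjusted p = 0.0236). In the filaments it was -2.20 for *Acta1* (adjusted p = 0.0317), -2.17 for *Tnnt1* (adjusted p = 0.0459), -1.87 for *Mybpc1* (adjusted p = 0.0308) and -2.69 for *Mybpc2* (adjusted p = 0.0381). In titin and the Z-disc it was -2.24 for *Ttn* (adjusted p = 0.0407), -2.70 for *Tcap* (adjusted p = 0.0175) and -1.47 for *Ldb3* (adjusted p = 0.0492). For energy and oxygen it was -2.10 for *Ckm* (adjusted p = 0.0456) and -2.83 for *Mb* (adjusted p = 0.0384). Cohort, age and treatment schedule cannot be told apart from the model in these differences.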

How the results depend on the processing

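Of the 40 members, 2 were called in db/db, 14 in STZ-HFD and 12 in the difference between the models. In that order, edgeR called 0, 0 and 0 (9, 19 and 21 at an unadjusted p under 0.05), voom with equal weights 1, 0 and 0 (17 and 18 at an unadjusted p under 0.05 for the last pair), and estimated transcript counts gave 0, 4 and 7 (13 at an unadjusted p under 0.05 in db/db). DESeq2 called 7 in STZ-HFD and 7 in the difference, filterByExpr 1 in db/db and 8 in STZ-HFD, no filter on low counts 1 in db/db and 7 in STZ-HFD, and removal of the GC trend 1 in db/db and 7 in the difference. Leaving out 1 library gave 1 to 4, 0 to 27 and 0 to 23 calls, and leaving out Con+Veh replicate 2 and STZ-HFD replicate 4 together gave 0 in STZ-HFD (22 at an unadjusted p under 0.05) and 3 in the difference. The replicate number as a block gave 8 (2 higher, 6 lower), 0 and 0 calls (22 and 27 at an unadjusted p under 0.05 for the last pair). Over all genes the calls were 281, 441 and 300, with edgeR 0, 29 and 5, at equal weights 9, 19 and 3, and with the block 1484, 6 and 2. Same-numbered libraries did not deviate together (mean correlation -0.08 in the db model and -0.11 in the STZ-HFD model, against 0.04 and 0.04 for different numbers). In the db model the same-numbered correlations ran from -0.25 to 0.17. So few libraries cannot exclude a pairing. Outside the block fit the numbers were used only as names. The fast over slow ratio was lower in 7 to 9 of 9 pairs in db/db and in 5 to 8 of 9 in STZ-HFD when 1 library was left out, a tally that includes *Tnnc2* over *Tnnc1* from the gene counts. Among 714 values of named genes under the alternatives, 374 kept their side of the threshold, 339 lost it and 1 changed sign: the difference of *Tnnt1*, -2.17, was 0.00911 in the transcript table, which holds an incomplete *Tnnt1*. *Mybph* was called in every alternative that tested it but edgeR (adjusted p = 0.176), with log2 fold changes from -3.22 to -2.56. The cause of the other changes was not tested. Apart from *Tnnc2*, whose gene counts cannot be read, depth bears most on *Actc1*, *Sln* and *Mybph*, which have the fewest counts.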

Other observations

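The adult myosin heavy chains, which mark fibre types directly, were split in favour of the fast chain *Myh1*, the IIx form. Of the summed *Myh1*, *Myh2*, *Myh4* and *Myh7* level it took 58.2%, 65.0% and 63.5% in db/db and 64.5%, 74.9% and 79.0% in db/+, with overlap. The slow *Myh7* took 10.4%, 9.83% and 9.93% in db/db and 5.34%, 5.36% and 5.12% in db/+, so its share was higher in every db/db library. The fastest chain, *Myh4*, took 0.875% to 1.17% in db/db, 0.485% to 2.13% in db/+, 1.63% to 6.49% in Con+Veh and 2.39% to 12.4% in STZ-HFD. These shares are a description, with no test, and the GC trend was not removed from them.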
